A study of Triticum aestivum with 78 samples.

Results

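The wheat lines compared here were divided by the level of 1 transcript in developing seed, the one read by probe set Ta.12445.1.A1_at of the Affymetrix wheat array. Of 39 lines, 28 had both arrays below 6.65 log2 units at this probe set and are called low lines (56 arrays). Another 6 lines, B68, B65, C10, C31, F48 and DH95, had both arrays above that level and are called high lines (12 arrays). The rule left out B33, H9, G13 and G30 by name, and H5 because its arrays lay on both sides, so 34 lines and 68 of 78 arrays were compared. All lines belong to the RL4452 x AC Domain mapping population of bread wheat (Triticum aestivum), and they differ only in genotype as far as the labels say. All were grown untreated in the same field trial and sampled as whole developing seed 5 days after anthesis, with 2 biological replicates per line. No genotype at any locus and no array of a parent was analysed here, so a class cannot be assigned to either parent. Values are RMA intensities on a log2 scale, and a difference is the mean of low lines minus the mean of high lines.

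Lines from a cross of inbred parents carry different mixtures of the parental alleles. Where a parental difference in sequence changes how strongly a gene is transcribed, or how stable its transcript is, the level of that transcript varies between lines and can be mapped like any other trait. Such an expression level polymorphism is said to act in cis when the causal difference lies at the gene itself, and in trans when it lies elsewhere, and a trans-acting locus can move many transcripts together. A few days after anthesis the wheat grain consists largely of green pericarp and of an endosperm that is passing from free nuclei to cells, and starch and storage proteins accumulate later. The array's annotation gives no gene for the dividing probe set, so no name or function is given to it, and the comparison asked which other transcripts differed between lines low and high at it.

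Some genes of green tissue and of the cytoskeleton were strongly expressed in both classes. Photosystem II protein OEE1 averaged 12.55 log2 units in low lines and 12.61 in high lines. The more strongly expressed probe set of the tubulin TUBA, Ta.812.1.S1_x_at, averaged 13.59 in low lines and 13.60 in high lines. Another TUBA probe set, Ta.723.1.S1_at, ran from 8.19 to 9.59 in high lines. Of 17 storage protein probe sets, 13 lay below 5.07 log2 units, the median level of all probe sets, in both classes. The same held for 26 of 37 photosynthesis probe sets. Of 4 probe sets of raftins, proteins of the anther's tapetum, 3 lay below that median in both classes. The highest, Ta.4091.1.S1_x_at of raftin1b, averaged 5.38 log2 units in low lines and 5.42 in high lines. Array medians ran from 32.2 to 36.4 intensity units in low lines and from 32.1 to 33.9 in high lines. The 36.4 came from 1 array, replicate 2 of H8, and every other low array lay at 34.2 or below. Low arrays were scanned on 15 days and high arrays on 8 of the same days. No wash record differed among high arrays, and 2 differed among low arrays. The number of arrays limits the precision, and fewer cells of a type cannot be told apart from less RNA per cell in whole seed.

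Levels of the dividing transcript itself are a description, since they chose the lines. Line means of Ta.12445.1.A1_at in low lines ran from 3.76 log2 units in F38b, with a median of 4.08, to 6.01 in H23. In high lines they were 9.79 in B68, 9.69 in B65, 9.06 in C10, 8.26 in C31, 7.38 in F48 and 7.30 in DH95. The classes averaged 4.34 ± 0.64 (SD between lines, n = 28) in low lines and 8.58 ± 1.11 (n = 6) in high lines, a difference of -4.24 log2 units, or 18.9-fold. The transcript was thus below the array's median level in 24 of 28 low lines, and it exceeded 86.1% of probe sets by its mean in high lines.

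Neither class held a single level. The SD between the 2 arrays of a line, pooled over lines, was 0.35 log2 units in low lines and 0.33 in high lines, smaller than the spread between lines of either class. Line means covered a 4.75-fold range in low lines and a 5.63-fold range in high lines. Among the high lines, B68 gave 9.79 and 9.80 log2 units in its replicates and B65 gave 9.57 and 9.82. At the lower end, DH95 gave 7.11 and 7.50 and F48 gave 7.17 and 7.60, so these pairs did not overlap with those of B68 and B65. Over all 39 lines, the variance between lines made up 0.93 of the total variance at this probe set, as an intraclass correlation.

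Just below the dividing level lay H23 with a line mean of 6.01 log2 units, A40 with 6.23 and 5.50 and F82 with 6.18 and 5.30. The nearest lines above it were DH95 and F48, and 1.30 log2 units separated the highest low line from the lowest high line. The 4 lines that the rule left out by name all lay on the low side, the highest of them G30 with 5.17 and 6.54. Line H5 gave 8.67 in replicate 1 and 6.08 in replicate 2, a larger disagreement than in any line compared.

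**Figure D1:**
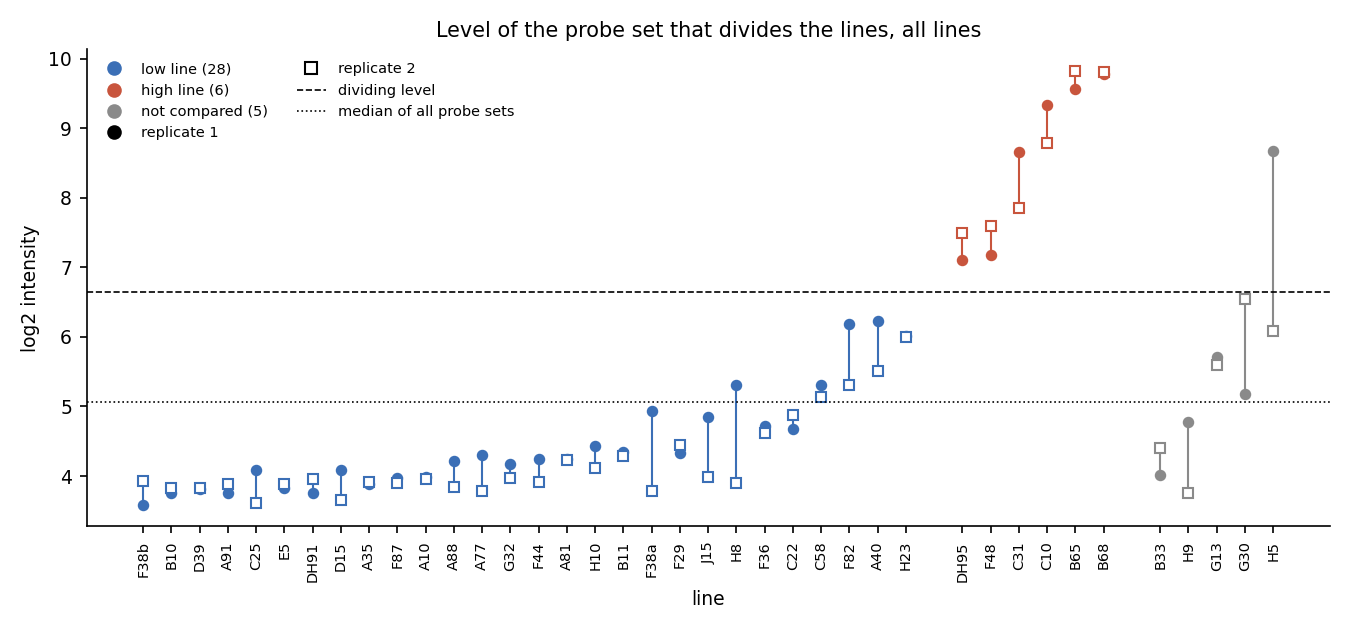
Level of Ta.12445.1.A1_at (vertical axis, log2 intensity) in both arrays of each line, with filled circles for replicate 1, open squares for replicate 2 and a line joining the pair. Low lines (left) reach 6.23 on their highest array and high lines (middle) start at 7.11, with the 5 lines not compared at the right, the dividing level as a dashed line and the median of all probe sets as a dotted line.

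No other transcript was called as different between the classes. Of 61114 probe sets tested over line means with limma, 0 passed an adjusted p of 0.05 (0% of those tested), and the smallest adjusted p was 0.9996. At an unadjusted p below 0.05 there were 1806 probe sets (2.96%), a smaller share than the 5% that this threshold alone would pass. They split into 745 (1.22%) higher and 1061 (1.74%) lower in low lines. No probe set had line means that did not overlap between low and high lines (0 of 61114, 0%). Over all probe sets the median difference was -0.0015 log2 units, and 49.1% were higher in low lines.

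The interval around each difference shows how large a difference these lines leave room for. The median 95% interval reached 0.15 log2 units to either side over all probe sets and 0.18 over the 30849 whose higher class mean was at or above the median level. For 60273 probe sets (98.6%) the whole interval lay within 2-fold in either direction. Among the 30849 at or above the median level this held for 30092 (97.5%). Class means differed by at least 2-fold at 129 probe sets (0.211%), 92 of them higher and 37 lower in low lines. These 129 are described next because of their size, as none passed the test after adjustment.

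**Figure D2:**
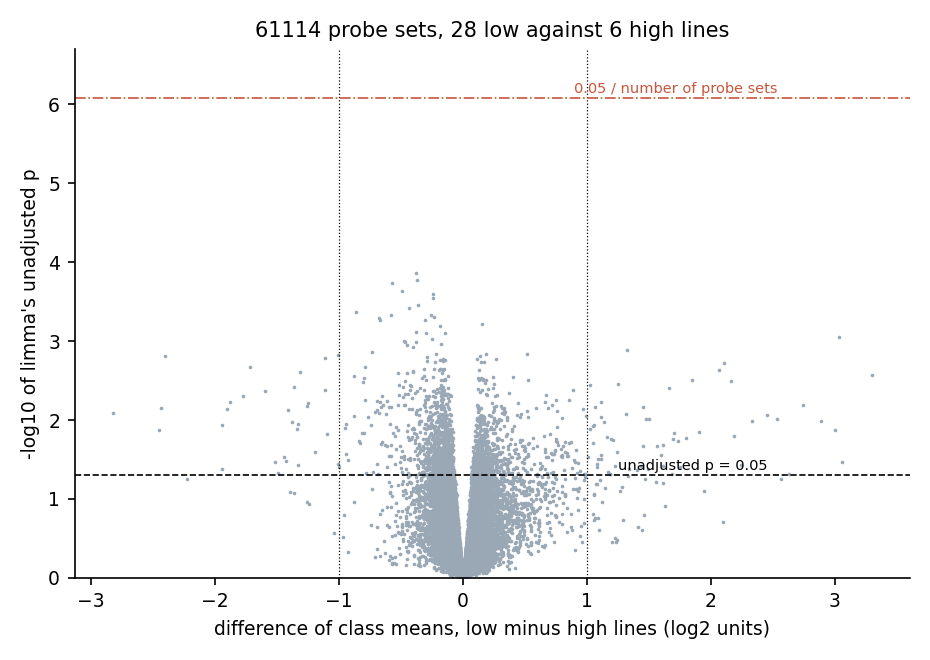
Difference of class means, low minus high lines (horizontal axis, log2 units), against -log10 of limma's unadjusted p (vertical axis) for 61114 probe sets, 1 point each. The smallest p, 0.000136, lies far below the upper dash-dotted line, which marks 0.05 divided by the number of probe sets. The lower dashed line marks an unadjusted p of 0.05, and dotted lines mark 2-fold.

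Among the largest positive differences, the transcript of Ta.20949.1.A1_at ran in low lines from 3.30 log2 units, with a median of 8.68, to 9.26. In all 6 high lines it was at 3.39 to 3.66, near the bottom of the array's range. The low lines lay on both sides of a gap between 5.48 and 8.28, with 17 above it and 11 below it together with all high lines. The class means were 6.86 in low lines and 3.56 in high lines, a difference of 3.30 (95% interval 1.23 to 5.37, unadjusted p = 0.00268, adjusted p = 0.9996 by limma). So 17 of 28 low lines lay above the gap, and 11 low lines and every high line lay below it. Some low lines below the gap still exceeded the high lines, as 21 low lines lay above all of them. The class means thus differ mainly through the 17 low lines above the gap.

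Ta.9409.1.S1_at had a similar form, with 22 of 28 low lines above every high line. Its line means in low lines ran from 4.68, with a median of 10.03, to 10.41, and 17 of them lay above a gap between 7.39 and 9.40. In high lines they were 5.03 in C10, 5.19 in B68, 5.22 in B65, 5.52 in C31, 5.94 in DH95 and 6.12 in F48. The classes averaged 8.54 ± 2.10 in low lines (n = 28) and 5.50 ± 0.44 in high lines (n = 6), a difference of 3.04 (95% interval 1.34 to 4.73, unadjusted p = 0.000885, adjusted p = 0.9996 by limma).

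Other large positive differences rested on high lines that did not share 1 level. Ta.28744.1.S1_at averaged 8.78 log2 units in low lines and 5.72 in high lines, and among the high lines F48 stood at 11.81 while the other 5 lay between 4.28 and 4.85. At Ta.3017.1.S1_x_at, with 7.69 in low lines and 4.80 in high lines, C10 stood at 8.08 and the other high lines between 3.92 and 4.42. DH95 was the exception at Ta.20001.1.A1_at, Ta.22681.1.S1_at and TaAffx.38460.1.S1_s_at, where it stood at 8.72, 9.27 and 10.56. Ta.10945.2.A1_x_at had B65 at 9.88 and DH95 at 10.19, and the other 4 high lines between 2.90 and 3.30. At each of these probe sets, at least 1 high line thus stood well above the others, and at Ta.3017.1.S1_x_at C10 still lay below the widest gap between lines, at 8.81 to 10.13, with the other 5 high lines.

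In the other direction, Ta.10217.1.A1_at ran in low lines from 3.53 log2 units, with a median of 6.46, to 9.88, and in all 6 high lines it was at 9.33 to 9.85. A gap between 6.65 and 8.04 put 13 low lines with the high lines and 15 low lines below it. The difference of class means was -2.83 (95% interval -4.87 to -0.78, unadjusted p = 0.00806, adjusted p = 0.9996 by limma). Ta.24733.1.S1_at spanned 3.84 to 8.55 (median 5.01) in low lines and 7.91 to 8.62 (median 8.36) in high lines, a difference of -2.40. TaAffx.84711.1.S1_at, the most strongly expressed of this kind, averaged 9.98 ± 1.84 in low lines and 11.92 ± 0.23 in high lines. TaAffx.29938.1.S1_at, Ta.8878.1.S1_at, Ta.30583.1.S1_at and Ta.6633.1.S1_x_at differed by -1.95, -1.90, -1.88 and -1.77, each with all 6 high lines above its widest gap and 11 to 16 low lines there too.

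**Figure D3:**
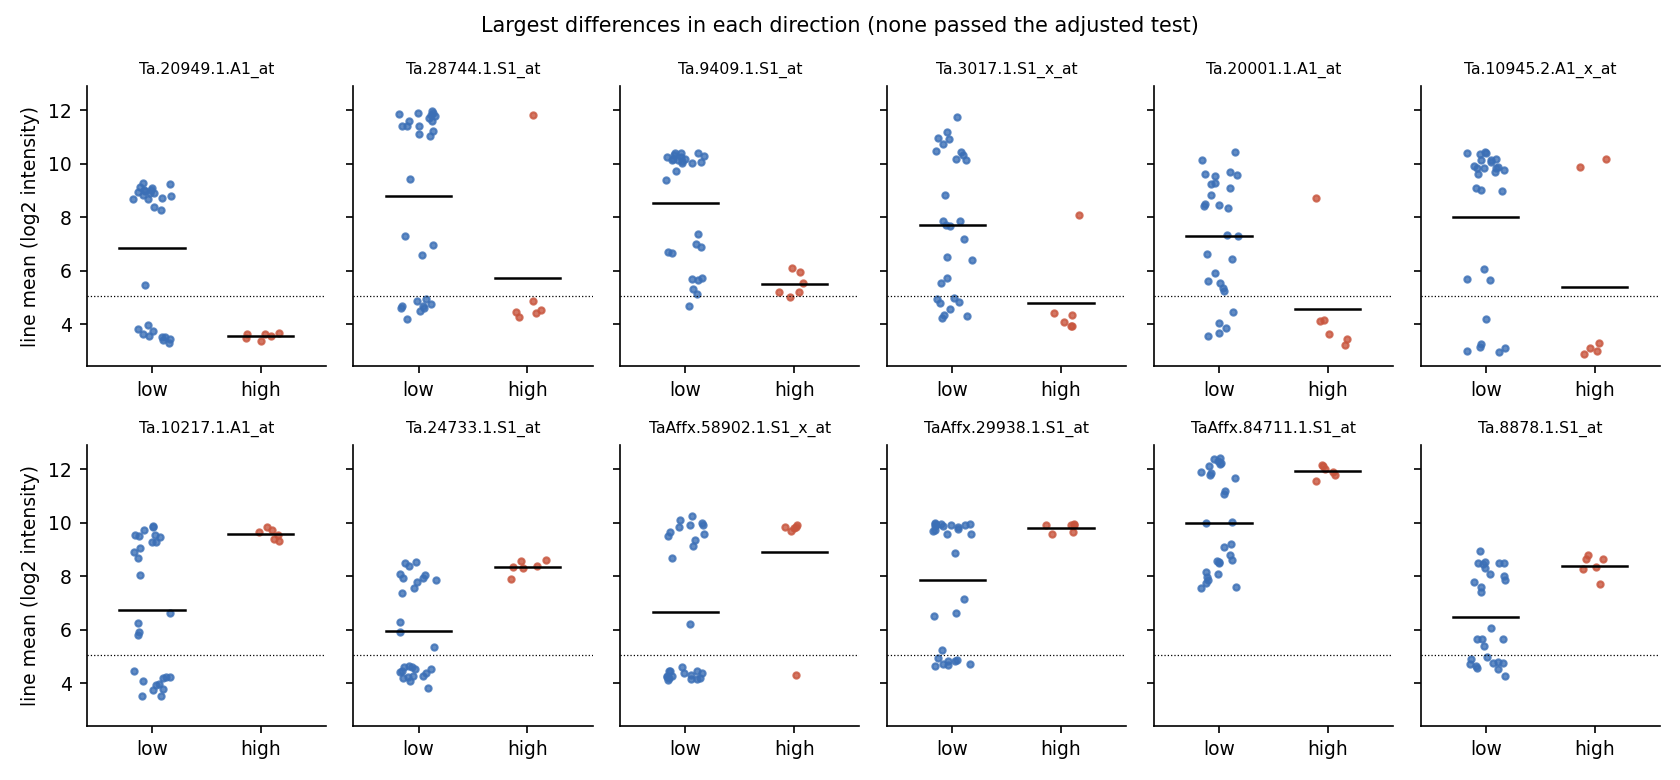
Line means (vertical axis, log2 intensity) of the 6 probe sets with the largest positive (top) and the 6 with the largest negative difference (bottom). They were taken 1 per cluster from those at or above the median level in a class. Low lines are left and high lines right in each panel, with 1 point per line, bars at class means and a dotted line at the median of all probe sets. The low lines fall on both sides of a gap in most panels, and low lines are found at the level of the high lines in all 12.

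Several of these probe sets divided the lines in the same way as each other. Ta.9409.1.S1_at, Ta.24733.1.S1_at, Ta.30583.1.S1_at and Ta.6633.1.S1_x_at placed all 34 lines alike, 17 low lines on one side and 11 low lines with the 6 high lines on the other. Ta.9409.1.S1_at ran opposite to the rest, with a correlation across the 28 low lines of -0.93 with Ta.24733.1.S1_at, -0.93 with Ta.30583.1.S1_at and -0.95 with Ta.6633.1.S1_x_at. Ta.24733.1.S1_at and Ta.30583.1.S1_at correlated at 0.99 in the low lines. These levels share arrays, so the correlations are descriptions. In the same sense Ta.22681.1.S1_at and TaAffx.38460.1.S1_s_at placed all 34 lines alike, with DH95 as the high line on the upper side. Ta.20949.1.A1_at and TaAffx.84711.1.S1_at placed 33 of 34 lines alike, in opposite directions. The 16 probe sets picked for large differences therefore hold fewer than 16 separate patterns of lines. Probe sequences were not used here, and a parental base change beneath a probe cannot be told apart from a change in level, and probe sets whose names end in _s_at or _x_at may also read related transcripts.

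The smallest p-values belonged to probe sets lower in low lines, with smaller and more even differences. Ta.25514.1.S1_s_at spanned 9.01 to 9.85 log2 units (median 9.37) in low lines, and stood at 9.55 in C10 and 9.72 to 9.96 in the other high lines. Its difference was -0.38 (95% interval -0.56 to -0.20, unadjusted p = 0.000136, adjusted p = 0.9996 by limma). At Ta.3523.1.S1_s_at the classes averaged 9.91 ± 0.21 in low lines and 10.28 ± 0.15 in high lines. At Ta.23388.1.S1_at they averaged 8.26 ± 0.29 in low lines and 8.75 ± 0.11 in high lines, where all 6 lines lay within 8.65 to 8.94. All 3 of these transcripts were lower in low lines by less than 1.5-fold, and the ranges of the classes overlapped at each. In the other direction, the lowest p-values included larger and less even differences. Ta.9409.1.S1_at, described above, was among them with its difference of 3.04 (unadjusted p = 0.000885 by limma). Ta.7172.1.S1_a_at averaged 8.25 ± 0.95 in low lines and 6.93 ± 0.23 in high lines, a difference of 1.33 (95% interval 0.56 to 2.10, unadjusted p = 0.0013 by limma). None of these probe sets has a gene name other than a locus number in the annotation.

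Likeness to the dividing transcript was measured as Pearson's r of line means over the 34 lines, which share their arrays. The largest size of r was 0.64, and 0 probe sets reached 0.7. Of the 10 most alike, 8 correlated positively, so they ran with the dividing transcript, and 2 negatively. Most lay below the median level in both classes, where levels span little. TaAffx.29783.1.S1_at, with r = 0.64, ran from 3.85 to 4.22 log2 units in low lines and from 4.14 to 4.24 in high lines.

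Among those with a level above the median, Ta.3194.1.S1_at had r = 0.61. Its line means in low lines ran from 5.95, with a median of 6.86, to 7.35, and in high lines they were 7.61 in B68, 7.27 in B65, 7.19 in C10, 7.66 in C31, 7.36 in F48 and 7.23 in DH95. The difference was -0.57 (95% interval -0.85 to -0.29, unadjusted p = 0.000181, adjusted p = 0.9996 by limma). Within the 28 low lines alone, r of this probe set was 0.26. Ta.5757.1.S1_at (r = 0.62) averaged 4.52 ± 0.40 in low lines and 5.19 ± 0.46 in high lines, and Ta.599.1.S1_at (r = 0.60) averaged 5.72 ± 0.51 in low lines and 6.45 ± 0.37 in high lines. Within low lines their r was 0.31 and 0.39. Of the 10, Ta.8672.1.A1_at alone had an r within low lines, 0.70, above that over all 34 lines, 0.63, and its levels of 3.47 to 3.92 in low lines and 3.80 to 4.03 in high lines lay near the bottom of the array's range.

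**Figure D4:**
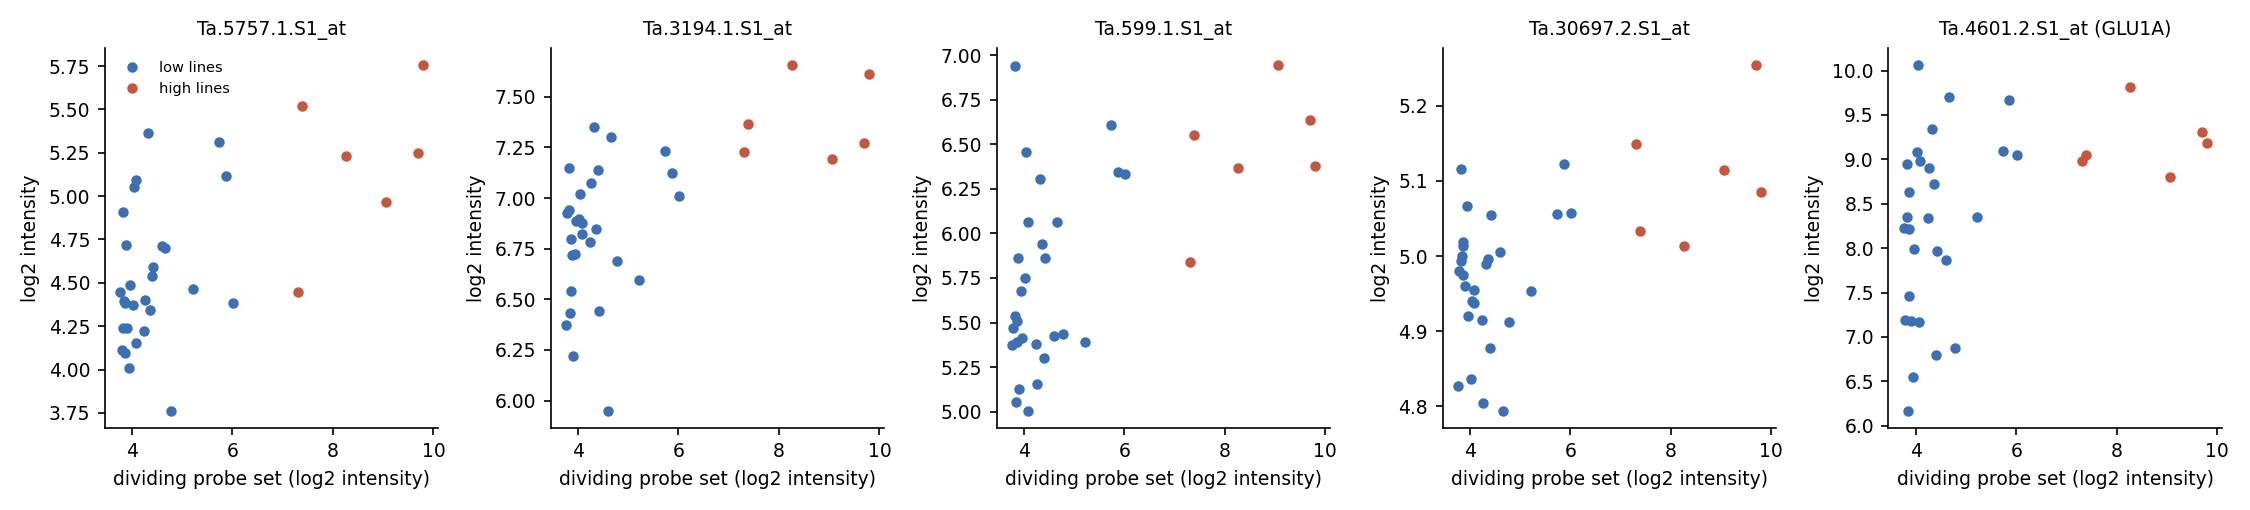
Line means (vertical axes, log2 intensity) of the 4 probe sets most like the dividing one that reached the median level in a class, and of the beta-glucosidase gene GLU1A at the right, against the level of Ta.12445.1.A1_at (horizontal axis, log2 intensity), 1 point per line. The ranges of low and high lines overlap in each panel.

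The probe set TaAffx.12445.1.A1_at shares a number with the dividing one but belongs to another cluster. It lay near the floor, at 3.34 ± 0.11 log2 units in low lines and 3.52 ± 0.10 in high lines, with overlapping ranges.

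Genes with a known role gave values for 200 probe sets of 94 named genes. None was called, and 3 had an unadjusted p below 0.05, beside 2.96% of all probe sets. GLU1A encodes a beta-glucosidase that releases defence compounds, the benzoxazinoids, from their glucosides. In low lines GLU1A ran from 6.17 log2 units, with a median of 8.34, to 10.06. In high lines it stood at 8.80 in C10, 8.98 in DH95, 9.05 in F48, 9.18 in B68, 9.30 in B65 and 9.81 in C31. Of the low lines, 4 lay above the median of high lines, and all 6 high lines lay above the median of low lines. The difference was -0.94 (95% interval -1.77 to -0.11, unadjusted p = 0.0272, adjusted p = 0.9996 by limma). The others were Serpin-Z2A, a protease inhibitor of the grain, and raftin1a, and both lay below the median level with differences of 0.13 and -0.092.

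No starch or sugar gene passed the test, with 0 of 9 probe sets called and a median difference of -0.047, beside -0.0015 over all probe sets. GBSS, the granule-bound starch synthase that makes amylose, had the largest SD of them in low lines (1.22 log2 units), while in high lines its SD of 0.92 was below the 1.02 of a 6-FEH probe set. GBSS ran from 7.43 log2 units, with a median of 9.35, to 11.35 in low lines. In high lines GBSS stood at 8.65 in F48, 8.82 in B65, 9.41 in C31, 9.57 in B68, 10.44 in C10 and 11.003 in DH95. The difference was -0.23 (95% interval -1.26 to 0.81), so the high lines spread over most of the range of the low lines. AGP-S, the small subunit of ADP-glucose pyrophosphorylase that supplies starch synthesis, averaged 10.97 ± 0.18 in low lines and 10.93 ± 0.11 in high lines. The fructan exohydrolases, which break down the fructans of the young grain, averaged 8.97 ± 0.94 in low lines and 8.96 ± 1.02 in high lines for 6-FEH, and 8.48 ± 0.35 in low lines and 8.53 ± 0.42 in high lines for 1-FEH. The alpha-amylase gene amy1 differed by -0.14 (95% interval -0.32 to 0.032).

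On average over each list, genes that come on with grain filling spread mainly upward from the median low line. For amylase inhibitors, thionins and serpins, 0 of 13 probe sets were called and the median difference was 0.067. ATI, an alpha-amylase inhibitor of the grain, ran from 5.23 log2 units, with a median of 6.22, to 10.63 in low lines and from 5.41, with a median of 6.91, to 8.03 in high lines. THI1.1, a thionin, averaged 6.61 ± 1.61 in low lines and 6.60 ± 0.91 in high lines. The mean of this list, as a deviation from each probe set's mean, ran from -0.87 to 2.68 log2 units in low lines and from -0.68 to 0.42 in high lines. Storage protein genes gave 0 of 17 called, a median difference of 0.051 and list means of -0.22 to 1.76 in low lines and -0.16 to 0.18 in high lines. The most strongly expressed probe set of ALP, an avenin-like protein, averaged 10.33 ± 0.20 in low lines and 10.24 ± 0.16 in high lines. Line means of the other ALP probe sets lay between 3.39 and 5.86 in high lines. The highest means of both lists were thus in low lines, while the median lines were -0.44 in low lines and -0.011 in high lines for the inhibitors and -0.11 in low lines and -0.083 in high lines for the storage proteins. A range over 28 low lines is also likely to be wider than one over 6 high lines. The part of seed stage in the comparison was not tested.

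Genes of green tissue and of dividing cells had small differences. Photosynthesis genes gave 0 of 37 called with a median difference of -0.0002. PRK, the phosphoribulokinase of carbon fixation, averaged 11.23 ± 0.17 in low lines and 11.11 ± 0.16 in high lines, and FBP, fructose-bisphosphatase, averaged 9.52 ± 0.15 in low lines and 9.57 ± 0.15 in high lines. Core histones gave 0 of 18 called with a median difference of -0.031, and H2A-9 differed by 0.011 (95% interval -0.080 to 0.10). Tubulins and profilin gave 0 of 12 called with a median difference of -0.035. Means over the histone list stayed within -0.25 to 0.19 log2 units in low lines and -0.15 to 0.15 in high lines, a narrower span than that of the inhibitors.

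For stress and defence genes, 0 of 15 were called and the median difference was -0.076, with 4 of 15 higher in low lines. The small heat shock gene hsp16.9A, a chaperone induced by heat, ran from 3.47 log2 units, with a median of 3.96, to 5.41 in low lines. In high lines it stood at 6.85 in B68, 5.10 in DH95, 4.99 in C10, 4.02 in C31, 3.89 in F48 and 3.66 in B65. Its difference was -0.58 (95% interval -1.21 to 0.047), and B68 alone exceeded every low line. LTP3, a lipid transfer protein, averaged 13.71 ± 0.28 in low lines and 13.92 ± 0.16 in high lines, a difference of -0.22 (95% interval -0.45 to 0.015). GA20ox1d, a gibberellin 20-oxidase of hormone synthesis, differed by -0.021, and WZF1, a zinc finger transcription factor, by -0.068 (95% interval -1.02 to 0.88). The remaining lists, of dehydrins and other late embryogenesis proteins (10 probe sets), translation (9) and tapetum (4), had 0 called and median differences of -0.017, 0.0069 and -0.035.

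**Figure D5:**
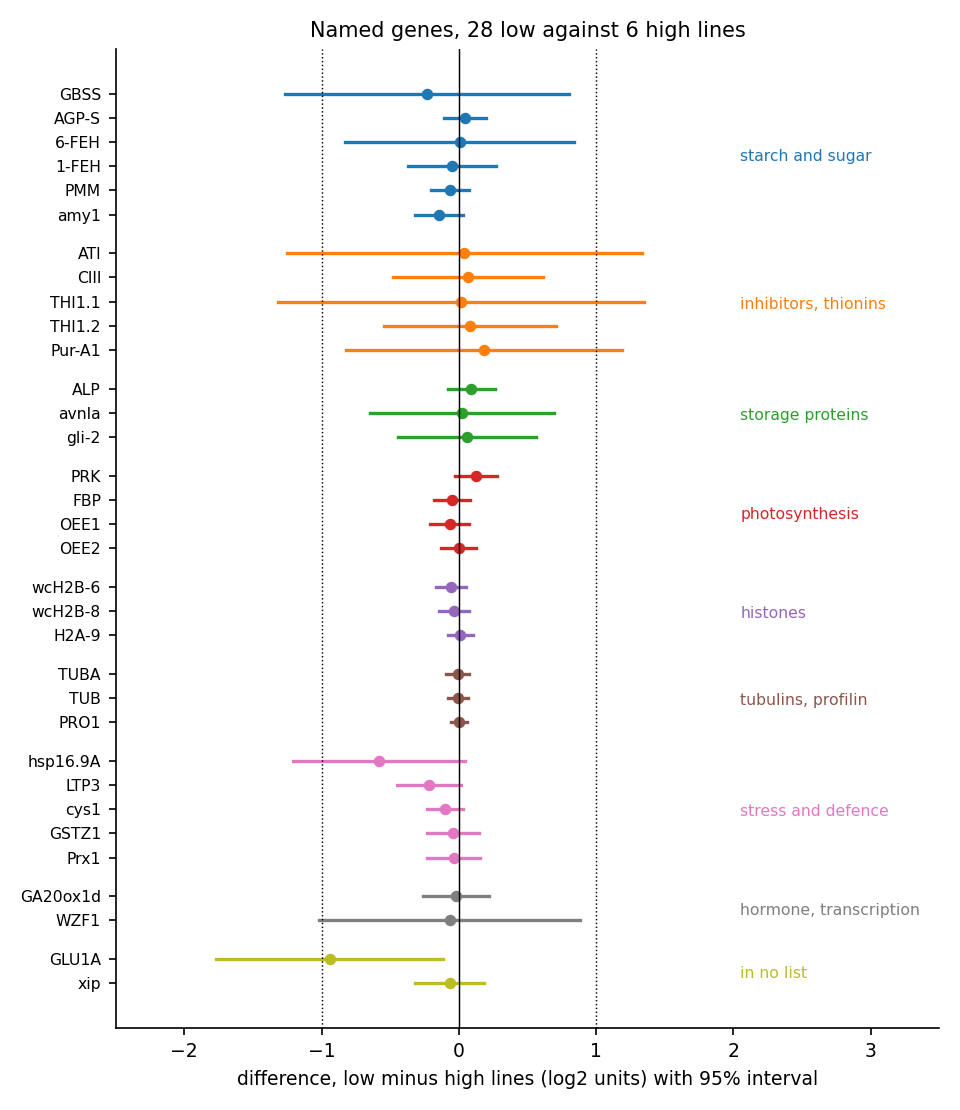
Difference of class means, low minus high lines (horizontal axis, log2 units), with its 95% interval, for a selection of the named genes grouped by role, without Serpin-Z2A and raftin1a, each shown by its most strongly expressed probe set. Among the genes plotted, all intervals include 0 except that of GLU1A (-1.77 to -0.11), and dotted lines mark 2-fold.

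Other transcripts with separated classes of lines did not follow the same division, and none was called. At Ta.9188.2.S1_at the low lines ran from 3.26 log2 units, with a median of 7.88, to 8.44, and all 6 high lines lay between 7.86 and 8.33, a difference of -1.24 (unadjusted p = 0.117). At TaAffx.58902.1.S1_x_at, low lines ran from 4.14, with a median of 4.55, to 10.28, and 5 high lines lay between 9.69 and 9.93 and C10 at 4.31, a difference of -2.23 (unadjusted p = 0.0558). The high lines divided evenly at Ta.12020.1.A1_at, where B68, C31 and DH95 stood at 7.45, 7.16 and 6.82 and B65, C10 and F48 at 4.63, 3.59 and 3.65. They also divided 3 to 3, with other lines together, at Ta.6215.1.A1_at and at Ta.22975.1.S1_at, and at Ta.30774.1.S1_at B68 and C10 stood at 7.35 and 7.10 and the other 4 between 3.98 and 4.71. Differences at these 4 were 0.36, 0.17, 0.21 and 0.61, each with an unadjusted p of at least 0.298, and the first 3 changed sign when single lines were left out.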

How the data were processed

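Wheat lines were compared on 68 of 78 arrays of developing seed. The authors deposited RMA intensities on a linear scale, per the submitters' processing notes (version not given in the sources used here). Intensities ran from 5.04 to 27696, and log2 was taken with no constant added. RMA scales arrays to a common distribution, which would hide a shift of all transcripts. The deposited instrument records gave scan days and wash records. Of 61290 probe sets, 111 controls, 64 reporters and the dividing probe set were left out.

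Line means of 2 arrays were compared, low minus high, with lmFit and eBayes of limma 3.58.1 (R 4.3.3, data.table, version 1.17.8), two-sided, Benjamini-Hochberg adjusted p below 0.05 over all 61114, after a test on simulated data. The line is the replicate, so p-values measure the spread between lines. Tables and figures used Python 3.11.15, numpy 2.4.6, pandas 2.3.3 and matplotlib 3.10.9.

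The lines, the lists of symbols and the named probe sets were chosen with earlier results of these data known. List symbols were corrected after the files were read, on names alone. The naming rule took called probe sets, of which there were none, and the 10 most like the dividing one; the largest differences, lowest p-values, named genes and markers of other divisions were chosen after their values were seen. Symbols came from the array's annotation (1273 probe sets; 1272 matched the table of RefSeq genes) and 59841 had none. Alternatives included other classes, normalizations, filters, array-level fits and lines left out.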

Additional observations from a re-analysis of the deposited data

Results flagged for a closer look

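In the high lines, 6 of 47 groups of line means had 1 line far from the other 5, by Dixon's criterion at the 95% level, which chance passes in about 1 in 20 groups, and the probe sets were picked for large differences. F48 was at 11.81 log2 units at Ta.28744.1.S1_at, where the other 5 high lines lay between 4.28 and 4.85. C10 was at 8.08 at Ta.3017.1.S1_x_at, where the others lay between 3.92 and 4.42. DH95 was at 8.72 at Ta.20001.1.A1_at (others 3.22 to 4.15), at 9.27 at Ta.22681.1.S1_at (others 4.39 to 4.77) and at 10.56 at TaAffx.38460.1.S1_s_at (others 4.83 to 5.94), 3 probe sets whose levels also correlated at 0.94 to 0.99 across the low lines. C10 was the lowest at TaAffx.58902.1.S1_x_at, at 4.31, where the others lay between 9.69 and 9.93. Outside the comparison, replicate 1 of line H5, which is in neither class, gave 8.67 at Ta.12445.1.A1_at, within the range of the high lines, and replicate 2 gave 6.08, within the range of the low arrays.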

How the results depend on the processing

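The count of 0 called probe sets held under every alternative run except array weights, with a smallest adjusted p between 0.03 and 1 over the alternatives. With arrays as units and array weights, limma called 7, all lower in low lines, and 3761 had an unadjusted p below 0.05, against 2142 with arrays as units and no weights and 1806 over line means. These 7 were Ta.3194.1.S1_at (-0.52), Ta.24733.1.S1_at (-2.42), Ta.23388.1.S1_at (-0.50), TaAffx.191.1.S1_at (-0.69), TaAffx.132143.1.S1_s_at (-0.85), TaAffx.70754.1.S1_at (-0.43) and Ta.9345.1.S1_at (-0.59). Replicate 2 of H8 had the lowest array weight, 0.084, and the next lowest was 0.40, at replicate 1 of F36. Over line means without that H8 array, 0 were called and 2046 had an unadjusted p below 0.05. The cause of the 7 calls was not tested. The replicate block with arrays as units gave 0 called and 2127 at an unadjusted p below 0.05, against 2142 without the block, and scan day gave 0 and 2521. The project entry of the instrument records coincided with the replicate number on all 78 arrays and had no fit of its own. Over 561 pairs of lines, the deviations of same-numbered arrays correlated at a median of 0.12 (-0.50 to 0.62), above 0.1 in 53.3% of pairs. Whether the replicate number marks a batch was not tested, and each line mean averaged the arrays of both numbers. Keeping only probe sets at or above the median level left 893 of 30849 at an unadjusted p below 0.05, since fewer were tested. Leaving out 1 line at a time gave 0 called and 1613 to 2174 at an unadjusted p below 0.05, the highest count without H8. Line means that did not overlap numbered 0 to 1 in these: without DH95, Ta.7351.1.S1_x_at ran from 4.84 to 8.51 in low lines and from 4.56 to 4.82 in high lines. Without replicate 2 the count was 1, Ta.3194.1.S1_at, with 6.24 to 7.20 in low lines and 7.21 to 7.62 in high lines. Requiring every array on its class side gave 0. Classes from one replicate with levels from the other gave 0 called both ways. Differences of 46 probe sets had 2471 values under alternatives, and 10 changed sign, all at markers of other divisions that did not pass the test: leaving out 1 line gave -0.0315 to 0.74 at Ta.12020.1.A1_at, -0.31 to 0.60 at Ta.6215.1.A1_at and -0.11 to 0.54 at Ta.22975.1.S1_at. Ta.6215.1.A1_at gave -0.016 without replicate 2, and Ta.22975.1.S1_at gave -0.0311 with H5 classed by its mean, an alternative chosen after seeing the data. So were the dividing transcript's own level as a continuous term (0 called) and the counts at an unadjusted p.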
